A study of Rattus norvegicus with 3 samples.

Results

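Small leucine-rich proteoglycans are secreted proteins built from leucine-rich repeats, many of which carry chondroitin, dermatan or keratan sulfate chains. They bind collagen fibrils in tendon, bone, cornea and skin, where they set fibril diameter and spacing, and several of them bind growth factors such as TGF-beta or signal through cell surface receptors. In bone marrow they are products of stromal cells and of the bone-forming lineage. The genes described here are the 9 family members Dcn, Bgn, Lum, Fmod, Ogn, Prelp, Omd, Aspn and Kera, chosen by name. They are 9 of the 13295 rat genes that had a named probe on the array, and they were measured by 10 probes, since Ogn had 2.

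Cy3-labeled cRNA was hybridized to 1 whole rat genome array for each of 3 cell types of F344 rats, so there were no replicates, no p-values were computed, and only the size of a difference is given. MSCs were mesenchymal stem cells from femur bone marrow, cultured by adherence to plastic and not sorted by the methods given, in medium with more serum than the sarcoma lines received. COS1NR is an osteosarcoma line and MFH1NR is a malignant fibrous histiocytoma (MFH) line. Both were derived, according to the methods, from tumors induced with 4-hydroxy quinolone 1-oxide in rats of the same strain, and both carry a p53 mutation. Each tumor type was represented by a single line. The arrays of COS1NR and MFH1NR shared a slide and the array of MSCs was on another, so in each comparison with MSCs the slide and the cell type cannot be told apart.

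Of 43379 spots that are not controls, between 56.6% and 59.7% were well above background by the software's call, and none was saturated. Intensities were divided by the 75th percentile of their own array, which was 589 for MSCs, 774 for COS1NR and 994 for MFH1NR. The log2 intensities of probes printed repeatedly on an array had a median SD between 0.05 and 0.06, and the log2 ratios from different probes of the same gene differed by a median of 0.15 to 0.31. All 10 stromal markers were well above background in MSCs, and 7 of them were in COS1NR and 8 in MFH1NR. Of the osteoblast markers, Sp7, a transcription factor needed for osteoblast formation, was not well above background in MSCs or COS1NR and had an intensity of 108 in MFH1NR, while Ibsp, a bone sialoprotein, had 5269 for MSCs, 491 for COS1NR and 51.7 for MFH1NR. All 10 macrophage markers were well above background in MSCs, against 5 in COS1NR and 4 in MFH1NR, and their summed level was 103 times the 75th percentile of the array in MSCs, 8.93 times in COS1NR and 4.25 times in MFH1NR. All 10 were lower by 2-fold or more in each line. Of the 10005 genes well above background on any array, 19.4% were in COS1NR and 21.2% in MFH1NR. Itgam, Adgre1, Ptprc, Cd163 and Fcgr2b were well above background in MSCs alone and so could only be lower. Without scaling Ptprc (-0.97 and -0.94 in log2) and Cd163 (-0.96 and -0.93) came within 2-fold, as Cd163 did in COS1NR over the mean of its probes (-0.69). The defining marker Adgre1 was not well above background in either line, and the part of such cells in the differences between the cultures was not tested. In RNA of whole cultures, fewer cells of a type and less RNA per cell cannot be told apart.

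The members lie in small groups along the rat chromosomes of the GRCr8 assembly. Dcn, Lum and Kera are neighbors on chromosome 7, Prelp and Fmod on chromosome 13, and Ogn, Omd and Aspn on chromosome 17, while Bgn is on chromosome X. The 250 bases before the annotated start, taken from RefSeq for GRCr8, were at hand for 6 of the 9 members, namely Lum, Fmod, Ogn, Omd, Aspn and Kera. The sequences of Ogn, Omd and Aspn are printed because these neighbors were all lower in both sarcoma lines than in MSCs, and that of Fmod because it was the member that was not. Capitals mark every match, on either strand, to 5 searched motifs: a TATA box (TATAAA or TATATA), a GC box (GGGCGG), an E-box (CANNTG), an AP-1 site (TGANTCA) and a RUNX site (TGTGGT). Positions are chr17:15258996-15259245 for Ogn, chr17:15274871-15275120 for Omd and chr17:15310470-15310719 for Aspn, all on the minus strand, and chr13:48045317-48045566 for Fmod, on the plus strand. Each sequence is read 5′ to 3′ toward the start of its gene.
Ogn: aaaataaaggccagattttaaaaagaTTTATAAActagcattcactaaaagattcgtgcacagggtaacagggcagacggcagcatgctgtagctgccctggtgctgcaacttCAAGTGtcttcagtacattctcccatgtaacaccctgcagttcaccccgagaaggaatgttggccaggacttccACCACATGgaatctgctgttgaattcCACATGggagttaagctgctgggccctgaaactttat
Omd: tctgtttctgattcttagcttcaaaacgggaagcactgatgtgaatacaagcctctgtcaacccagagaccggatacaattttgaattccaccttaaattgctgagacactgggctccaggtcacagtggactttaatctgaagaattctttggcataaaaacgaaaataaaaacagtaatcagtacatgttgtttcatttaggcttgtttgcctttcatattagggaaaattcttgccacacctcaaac
Aspn: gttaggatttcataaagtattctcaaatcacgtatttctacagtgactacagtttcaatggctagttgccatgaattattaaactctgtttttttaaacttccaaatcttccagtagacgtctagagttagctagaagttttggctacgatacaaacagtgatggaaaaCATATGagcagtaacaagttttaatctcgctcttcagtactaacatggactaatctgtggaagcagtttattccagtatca
Fmod: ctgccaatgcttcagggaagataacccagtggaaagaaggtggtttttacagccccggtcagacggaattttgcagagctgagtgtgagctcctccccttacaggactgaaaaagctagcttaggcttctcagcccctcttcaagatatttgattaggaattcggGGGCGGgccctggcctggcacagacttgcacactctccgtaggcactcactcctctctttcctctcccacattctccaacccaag

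E-boxes were found in 65.5% of 33469 promoters of this length, and Ogn held 3 of them and Aspn held 1. The E-boxes of Ogn began 137, 61 and 37 bases before the start, and the middle of them overlapped its RUNX site, a motif found in 14.5% of promoters. The TATA box letters of Ogn, present in 16.1% of promoters, began 224 and 222 bases before the start as overlapping matches on opposite strands. Fmod held 1 GC box, a motif of 30.5% of promoters, which began 85 bases before the start. No AP-1 site, a motif in 6.34% of promoters, was found in any of the 6 members, and the window of Omd held none of the 5 motifs. The GC content was 34.8% for Aspn, 38.8% for Omd, 46.0% for Ogn and 52.8% for Fmod, against a median of 51.2% over all promoters, and 5.94% of promoters were as low as that of Aspn. These matches describe the printed letters and do not show that a factor bound there.

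A total of 7 members, Dcn, Bgn, Aspn, Lum, Prelp, Omd and Ogn, were lower than MSCs by 2-fold or more in COS1NR, and each of these 7 was lower by 2-fold or more in MFH1NR as well. Fmod was the exception, with 1.08-fold less in COS1NR and 3.02-fold more in MFH1NR. A gene was used if its probe was well above background on 1 array or more, as were those of 8 members and of 10005 genes in all, and Kera was the member left out. Prelp and Aspn met this rule in MSCs alone and so could only be lower in the lines, which makes the counts over the members a description. Of the 8 members used, 7 were at least 2-fold lower and 0 at least 2-fold higher in COS1NR, where 19.4% of all genes used were lower and 20.0% were higher by this rule. In MFH1NR, 7 were lower and 1 was higher, against 21.2% and 19.0% of all genes used. The median log2 ratio over the members was -3.21 in COS1NR and -4.0 in MFH1NR, beside 0.11 and 0.02 over all genes used. These 2 comparisons share the array of MSCs and are not independent of each other. Where a probe did not reach the call of well above background, its level on that array was raised to the lowest intensity with that call there (17.9 for MSCs, 29.4 for COS1NR and 30.1 for MFH1NR), and the ratio is then a bound, written as at least N-fold.

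**Figure D1:**
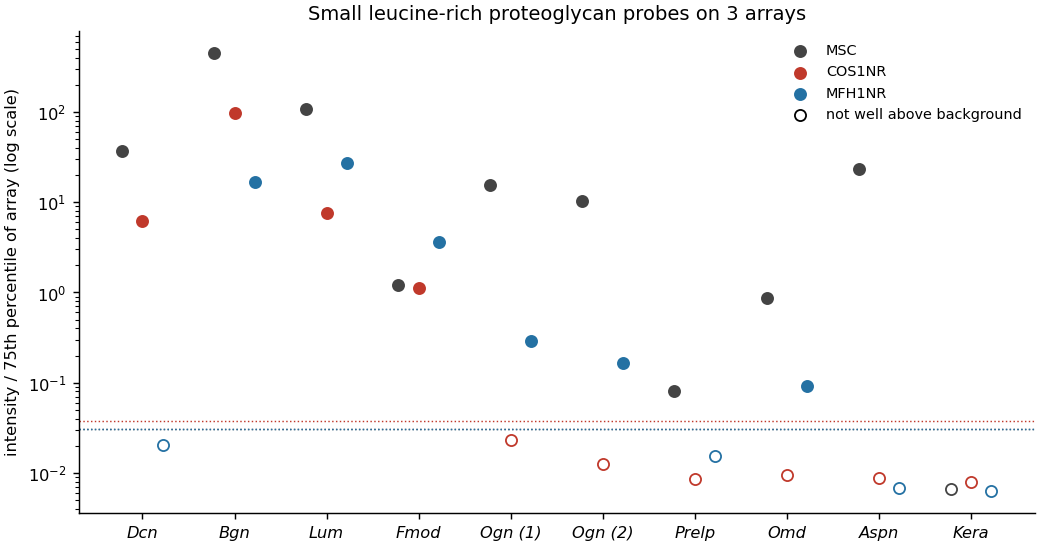
Intensity of each probe of the 9 small leucine-rich proteoglycans, divided by the 75th percentile of that array, on a log axis; each point is 1 array, open points were not well above background, and the dotted lines mark the lowest intensity well above background on each array. Of the 9 members, 8 were well above background in MSCs, 4 were in COS1NR and 5 were in MFH1NR, and levels of different probes are not comparable with each other.

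The class I members, Dcn, Bgn and Aspn, are close relatives, of which decorin and biglycan carry chondroitin or dermatan sulfate chains. Dcn encodes decorin, which binds collagen fibrils and TGF-beta, and its probe had an intensity of 22059 for MSCs, 4845 for COS1NR and 20.4 for MFH1NR. The level was thus bright in MSCs, lower but still far above background in COS1NR, and without that call in MFH1NR. After scaling, Dcn was 5.98-fold below MSCs in COS1NR and at least 1238-fold below them in MFH1NR. The latter bound, a log2 ratio of -10.27, became -8.83 with normexp background correction. Between the lines, which shared a slide, Dcn was at least 207-fold lower in MFH1NR, a log2 ratio of -7.69 that became -6.24 with normexp.

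Bgn encodes biglycan, a matrix protein of bone and cartilage that also acts as a ligand of Toll-like receptors. Its probe had an intensity of 265392 for MSCs, 74697 for COS1NR and 16534 for MFH1NR. It was well above background on all 3 arrays, with MSCs highest and MFH1NR lowest. Bgn was 4.67-fold lower in COS1NR and 27.1-fold lower in MFH1NR than in MSCs, and 5.81-fold lower in MFH1NR than in COS1NR. The spots of Bgn in MSCs and COS1NR, like those of Dcn in MSCs and of Lum in MSCs and MFH1NR, were read by the software from a scan at low gain and scaled up.

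Aspn encodes asporin, which binds collagen and TGF-beta and lacks the attachment site for the chains that its relatives carry. It had an intensity of 13757 for MSCs, 6.80 for COS1NR and 6.83 for MFH1NR, so it was bright in MSCs and not well above background in either line. Aspn was at least 615-fold below MSCs in COS1NR and at least 772-fold below them in MFH1NR. As log2 ratios these bounds were -9.26 and -9.59, and with normexp background correction they became -7.96 and -8.13. No ratio between the lines can be given, since both were at background.

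The class II members, Lum, Fmod, Prelp, Omd and Kera, include the keratan sulfate proteoglycans. Lum encodes lumican, which keeps collagen fibrils of the cornea and skin thin and regularly spaced, and its probe had an intensity of 63624 for MSCs, 5825 for COS1NR and 27085 for MFH1NR. The level was high on all 3 arrays, and the order of the sarcoma lines was the reverse of that of Dcn and Bgn. Lum was 14.3-fold lower in COS1NR and 3.96-fold lower in MFH1NR than in MSCs. It was 3.62-fold higher in MFH1NR than in COS1NR.

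Fmod encodes fibromodulin, which shares a binding region on collagen with lumican and acts in the assembly of tendon fibrils. It had an intensity of 708 ± 70.9 (error given by the software) for MSCs, 857 ± 85.9 for COS1NR and 3603 ± 360 for MFH1NR. MSCs and COS1NR were close to each other, and MFH1NR stood above both. The log2 ratio of COS1NR to MSCs was -0.12, less in size than the median difference of 0.28 between different probes of a gene in this ratio, and it turned positive without scaling (0.28), with median scaling (0.04) and with normexp background correction (0.08). The log2 ratio of MFH1NR to MSCs was 1.59, with 10.03% of genes as high or higher, and that of MFH1NR to COS1NR was 1.71, a 3.27-fold difference.

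Omd encodes osteomodulin, also called osteoadherin, a keratan sulfate proteoglycan of mineralized bone matrix made by osteoblasts. It had an intensity of 509 for MSCs, 7.29 for COS1NR and 91.4 for MFH1NR. It was not well above background in the osteosarcoma line, and low in MFH1NR. Omd was at least 22.8-fold below MSCs in COS1NR and 9.40-fold below them in MFH1NR, and at least 2.42-fold higher in MFH1NR than in COS1NR. With normexp background correction the bound in COS1NR became a log2 ratio of -3.27, and that between the lines fell below 2-fold, to 0.69.

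Prelp encodes prolargin, which anchors basement membrane proteoglycans to collagen. It was dim throughout, with an intensity of 47.6 ± 6.16 (error given by the software) for MSCs, 6.62 for COS1NR and 15.2 for MFH1NR, and was well above background only in MSCs. Prelp was at least 2.13-fold below MSCs in COS1NR and at least 2.67-fold below them in MFH1NR, and both bounds fell below 2-fold without scaling, with log2 ratios of -0.70 and -0.66. Kera encodes keratocan, a proteoglycan of the corneal stroma, and had an intensity of 3.89 for MSCs, 6.14 for COS1NR and 6.24 for MFH1NR. None of these was well above background, and no ratio is given for Kera.

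Ogn, the class III member, encodes osteoglycin, also called mimecan, a small matrix protein first described in bone. Its brighter probe had an intensity of 9213 for MSCs, 17.8 for COS1NR and 288 for MFH1NR, and its second probe had 6139, 9.62 and 163. Both probes were bright in MSCs, at background in COS1NR and low but above background in MFH1NR. By the brighter probe Ogn was at least 412-fold below MSCs in COS1NR and 53.9-fold below them in MFH1NR, and by the second probe at least 274-fold and 63.6-fold lower. The bound in COS1NR, a log2 ratio of -8.69, became -7.17 with normexp background correction. Ogn was at least 7.64-fold higher in MFH1NR than in COS1NR by the brighter probe and at least 4.31-fold higher by the second. The former, a log2 ratio of 2.93, became 1.70 with normexp.

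**Figure D2:**
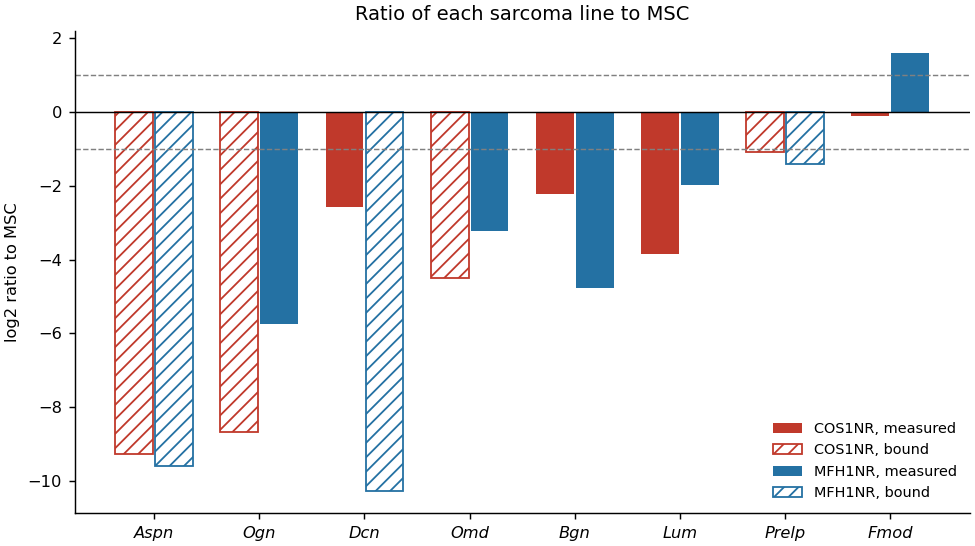
Log2 ratio of COS1NR and of MFH1NR to MSCs for the 8 members with a ratio, from 1 array per cell type; filled bars were measured on both arrays, hatched bars are bounds because the line was not well above background, and dashed lines mark 2-fold. Fmod is the only member above 0, at 1.59 in MFH1NR, and Dcn and Aspn reach bounds of -10.27 and -9.59 there.

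Setting the lines against each other on their shared slide, 6 members had a ratio. Dcn and Bgn were lower in MFH1NR by 2-fold or more, and Lum, Fmod, Ogn and Omd were higher by 2-fold or more. Of all genes used, 14.2% were lower and 11.7% were higher in MFH1NR by this rule, and with spike-in scaling 6.69% were lower and 32.9% higher. The counts over the members, 2 lower and 4 higher, became 2 and 3 with normexp, against 11.5% and 9.08% of all genes used. They became 2 and 3 at a 3-fold threshold as well, against 7.94% and 6.88%. Where each of the 3 arrays had to reach the background call they became 1 and 2, against 12.1% and 9.69%. The median log2 ratio was 1.49 over these 6 members and -0.09 over all genes used. In class I both members with a ratio were lower in MFH1NR, and the 3 members of class II and the member of class III with a ratio were higher. The bounds of Prelp and Aspn in MFH1NR and COS1NR carry no order between the lines.

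Dcn and Lum lie next to each other. In COS1NR their log2 ratios to MSCs differed by 1.26. In MFH1NR they differed by at least 8.29, a limit set by the bound of Dcn. Between MFH1NR and COS1NR they differed by at least 9.55, with Dcn lower and Lum higher in MFH1NR. Epyc, which encodes the cartilage proteoglycan epiphycan and lies beyond Kera in the same group, was at least 16.4-fold below MSCs in COS1NR and at least 20.6-fold below them in MFH1NR. As log2 ratios these bounds of Epyc were -4.04 and -4.36, and with normexp they became -2.74 and -2.98. The genes outside the group with a probe had log2 ratios to MSCs of -0.08 and -1.03 for Btg1, a growth regulator, 0.22 and 0.12 for Ccer1, and -0.56 and -0.61 for Atp2b1, a calcium pump, in COS1NR and MFH1NR. Btg1 in MFH1NR was within 2-fold under each other scaling, from -0.82 to -0.28, and in COS1NR it turned sign without scaling (0.31) and with median scaling (0.08). Ccer1 turned sign with normexp (-0.15 and -0.32) and in COS1NR with spike-in scaling (-0.05), and Atp2b1 in MFH1NR without scaling (0.15).

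On chromosome 17 all 3 neighboring members were lower in both lines, and the flanking genes with a probe stayed within 2-fold of MSCs. The log2 ratios of Iars1, an isoleucyl-tRNA synthetase, were -0.62 in COS1NR and -0.59 in MFH1NR, where without scaling it turned to 0.17, and those of Ippk, an inositol phosphate kinase, were -0.27 and 0.12. On chromosome 13 the log2 ratios of Prelp and Fmod differed by at least 0.97 in COS1NR and at least 3.01 in MFH1NR, limits set by the bounds of Prelp. Beside Fmod, the antiproliferative gene Btg2 had log2 ratios of -1.45 and -5.15, and next to it Chit1, a chitinase, had 2.58 and 0.64. With normexp Chit1 fell to 1.25 and turned to -0.11, and in MFH1NR it passed 2-fold without scaling (1.40) and with spike-in scaling (1.16). Chi3l1, a chitinase-like protein beyond it, had a bound of 1.91 in COS1NR, which became 0.54 with normexp, and no ratio in MFH1NR. On the other side of Prelp, Lax1, an adaptor of lymphocytes, had bounds of -0.97 and -1.30, the latter within 2-fold without scaling (-0.55) and with spike-in scaling (-0.78). No probe was named here for Optc and Ecm2, the other leucine-rich repeat genes of these groups.

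**Figure D3:**
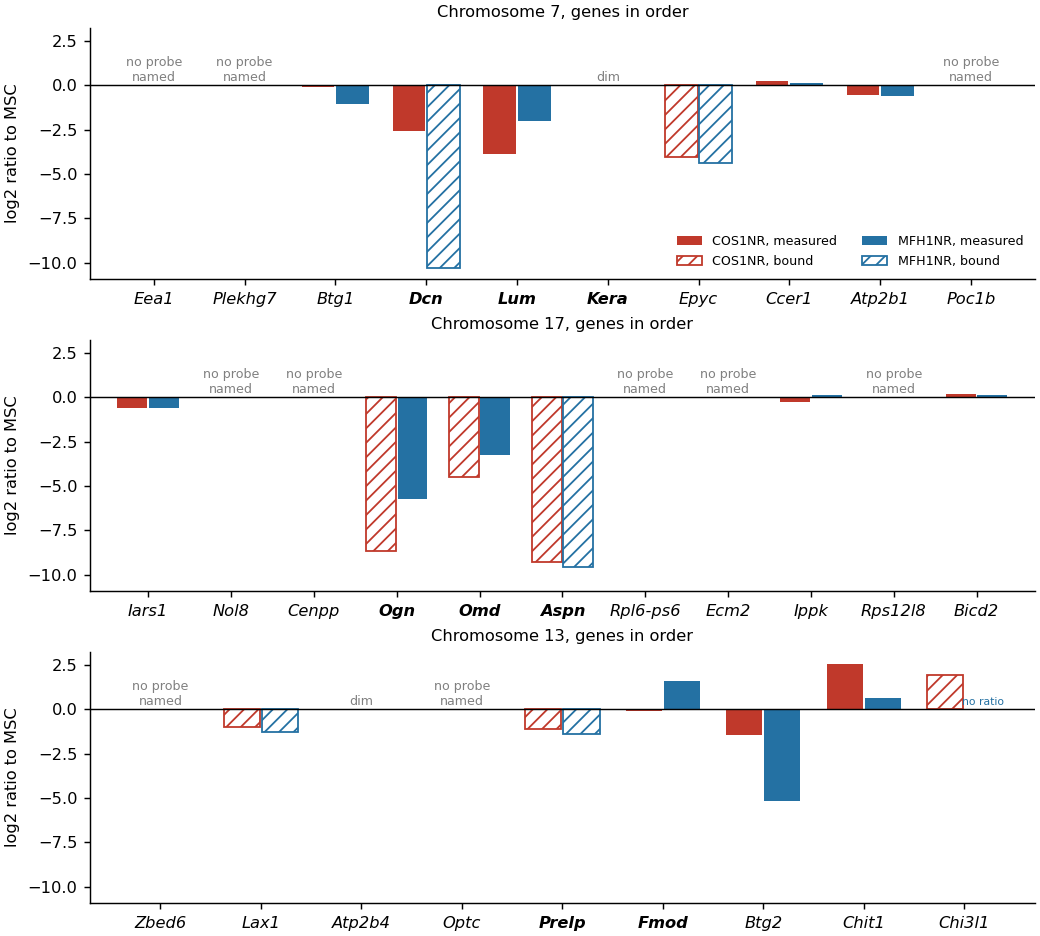
Log2 ratio to MSCs of the members (bold) and the genes beside them, in their order on GRCr8 chromosomes 7, 17 and 13, for COS1NR and MFH1NR; filled bars were measured on both arrays and hatched bars are bounds. Genes marked dim were not well above background on any array, and Dcn, with a bound of -10.27, and Lum, at -1.99, stand side by side in MFH1NR.

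Among other small leucine-rich repeat proteins, 4 of 9 listed had a named probe. Tsku, which encodes the secreted signaling modulator tsukushi, was 1.64-fold lower in COS1NR and 2.53-fold lower in MFH1NR than in MSCs. In MFH1NR the log2 ratio of Tsku came within 2-fold without scaling (-0.59) and with spike-in scaling (-0.82). Nyx, a protein of the retina, was near background in MSCs with an intensity of 22.5, and its log2 ratios were bounded at -0.01 and -0.34. Chad, a chondrocyte adhesion protein, was not well above background on any array. No probe was named here for Optc, Chadl, Podn, Podnl1 and Ecm2.

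The enzymes that build the sugar chains of these proteins were counted by the same rule, as a description. Of 15 chondroitin and dermatan sulfate enzymes used, 4 were at least 2-fold lower and 1 higher in COS1NR, against 19.4% and 20.0% of all genes used. In MFH1NR 7 were lower and 1 higher, against 21.2% and 19.0%. The medians were -0.74 and -0.96 in log2. Chst7 was well above background in MSCs alone and so could only be lower. In MFH1NR the balance turned without scaling, to 2 lower and 3 higher, and with median or spike-in scaling 3 were lower. In COS1NR 2 were lower without scaling and 8 with spike-in scaling. The lowest were Chsy1, a chondroitin chain polymerase, at least 8.40-fold lower in COS1NR and 6.75-fold lower in MFH1NR, and Chst11, a chondroitin 4-sulfotransferase, 4.62-fold and 7.38-fold lower. The log2 ratios of Chsy1, -3.07 and -2.75, became -1.87 and -1.89 with normexp. The highest was Chst14, the dermatan 4-sulfotransferase, with an intensity of 590 for MSCs, 3221 for COS1NR and 3989 for MFH1NR, 4.16-fold and 4.01-fold higher than in MSCs. Fam20b, a kinase that phosphorylates the linker of the chains, had log2 ratios of 0.58 and 0.23.

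Of 8 keratan sulfate enzymes used, 3 were lower and 0 higher in COS1NR, against 19.4% and 20.0% of all genes used. In MFH1NR 4 were lower and 1 higher, against 21.2% and 19.0%. B3gnt7 was well above background in MSCs alone and so could only be lower, and Chst5 in MFH1NR alone and so could only be higher. B3gnt7 and B3gnt2, which extend the lactosamine backbone of the chain, were the lowest, with B3gnt7 at least 6.28-fold below MSCs in COS1NR and at least 7.89-fold below them in MFH1NR. B3gnt2 was 3.39-fold and 5.23-fold lower. With normexp the log2 ratios became -1.65 and -2.27 for B3gnt7 and -1.44 and -1.65 for B3gnt2. The gene counted as higher in MFH1NR was Chst5, a keratan sulfate sulfotransferase named after its values were seen, with an intensity of 10.1 and 6.30 in MSCs and COS1NR, not well above background, and 221 in MFH1NR, at least 7.30-fold above MSCs, a log2 ratio of 2.87 that became 1.23 with normexp. By the mean of both ratios, the highest genes were B4galt1 and Slc35b2. B4galt1, a galactosyltransferase, had log2 ratios of -0.69 and -0.22, the latter turning to 0.54 without scaling and 0.30 with spike-in scaling, and Slc35b2, a carrier of the sulfate donor into the Golgi, had 0.13 and -0.72.

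Other proteoglycans of the matrix were a mixed group. Of 9 used, 4 were lower and 1 higher in COS1NR, against 19.4% and 20.0% of all genes used. In MFH1NR 6 were lower and 0 higher, against 21.2% and 19.0%. The medians were -0.44 and -3.68. Acan, or aggrecan, and Esm1 were well above background in MSCs alone and so could only be lower. The higher gene in COS1NR was Prg4, or lubricin, named after its values were seen, with an intensity of 916 for MSCs, 2410 for COS1NR and 47.2 for MFH1NR. Its log2 ratio in COS1NR was 1.002, at the threshold, and fell to 0.94 with quantile normalization and 0.73 with spike-in scaling, while in MFH1NR Prg4 was 32.8-fold lower, a log2 ratio of -5.04 that became -3.77 with normexp. The count of higher genes in COS1NR became 0 with spike-in scaling and 3 without scaling. Esm1, or endocan, was at least 94.6-fold and at least 119-fold lower, and Srgn, the serglycin of blood cell granules, was lower by at least 186-fold in COS1NR and 37.5-fold lower in MFH1NR. With normexp the log2 ratios became -5.31 and -5.59 for Esm1 and -6.08 and -4.76 for Srgn. Agrn, or agrin, had log2 ratios of 0.26 and 0.11, and Bcan, or brevican, 0.68 and 0.25. Agrn turned sign in COS1NR with spike-in scaling (-0.01) and in MFH1NR with normexp (-0.03), and Bcan passed 2-fold in both lines without scaling (1.07 and 1.001).

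Ligands and receptors of these proteins were counted next. Of 17 used, 10 were lower and 0 higher in COS1NR, against 19.4% and 20.0% of all genes used. In MFH1NR 11 were lower and 2 higher, against 21.2% and 19.0%. The medians were -2.13 and -1.74. Without scaling 9 were lower and 1 higher in COS1NR, and 8 were lower and 4 higher in MFH1NR. Bmp4 was well above background in MSCs alone and so could only be lower. Egfr, a receptor bound by decorin, was 12.9-fold and 14.2-fold lower, with log2 ratios of -3.68 and -3.83 that became -2.55 and -2.76 with normexp, and Ccn2, a matrix growth factor also bound by decorin, was 85.7-fold lower in COS1NR and 3.63-fold lower in MFH1NR. The 2 higher genes in MFH1NR were Bmp2, a bone morphogenetic protein, at an intensity of 734 for MSCs, 460 for COS1NR and 28449 for MFH1NR, and Tlr4, a Toll-like receptor of biglycan, at 38.9, 6.21 and 1323. Tlr2, another receptor of biglycan, named after its values were seen, ran the other way, at 12626, 14607 and 570, and was 37.4-fold lower in MFH1NR than in MSCs. Relative to MSCs, Bmp2 was 23.0-fold and Tlr4 20.2-fold higher in MFH1NR, and the log2 ratio of Tlr4 there, 4.33, became 3.07 with normexp.

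The collagens of the fibrils and beaded filaments that these proteins bind were largely lower too. Of 7 used, 6 were lower by 2-fold or more in COS1NR and 5 in MFH1NR, against 19.4% and 21.2% of all genes used. None was higher, against 20.0% and 19.0%, and the medians were -4.96 and -3.46. Col14a1 was well above background in MSCs alone and so could only be lower. Col1a2 in MFH1NR, at a log2 ratio of -0.98, passed 2-fold over the mean of all probes (-2.77) and with normexp (-1.02). Col3a1 had an intensity of 299640 for MSCs, 1484 for COS1NR and 25824 for MFH1NR, and was 265-fold and 19.6-fold lower than in MSCs. Col5a3 was 212-fold and 59.6-fold lower, and Col6a2 was 3.35-fold and 11.0-fold lower. Col1a1, the main chain of bone collagen, was within 2-fold of MSCs in both lines at the brightest of its probes, with 83826 for MSCs, 87747 for COS1NR and 108611 for MFH1NR, but over the mean of all its probes its log2 ratios were -2.01 and -1.87.

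Enzymes that process or cleave the family were lower in 8 of 10 in COS1NR with 0 higher, against 19.4% and 20.0% of all genes used. In MFH1NR 5 of 10 were lower and 1 higher, against 21.2% and 19.0%, and the medians were -2.16 and -0.95. Tll1 was well above background in MSCs alone and so could only be lower. Mmp13, a collagenase that cleaves fibromodulin, was 80.8-fold and 172-fold lower, and its log2 ratios of -6.34 and -7.43 became -5.47 and -6.12 with normexp. Mmp2, a gelatinase, was 155-fold lower in COS1NR and 2.33-fold lower in MFH1NR. The latter came within 2-fold without scaling (-0.46), with spike-in scaling (-0.70) and with quantile normalization (-0.96). Mmp3, stromelysin, had an intensity of 372 for MSCs, 284 for COS1NR and 9802 for MFH1NR, and was 15.6-fold higher in MFH1NR than in MSCs. Htra1, a serine protease that degrades several of these proteins, had log2 ratios of 0.20 and -0.20.

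**Figure D4:**
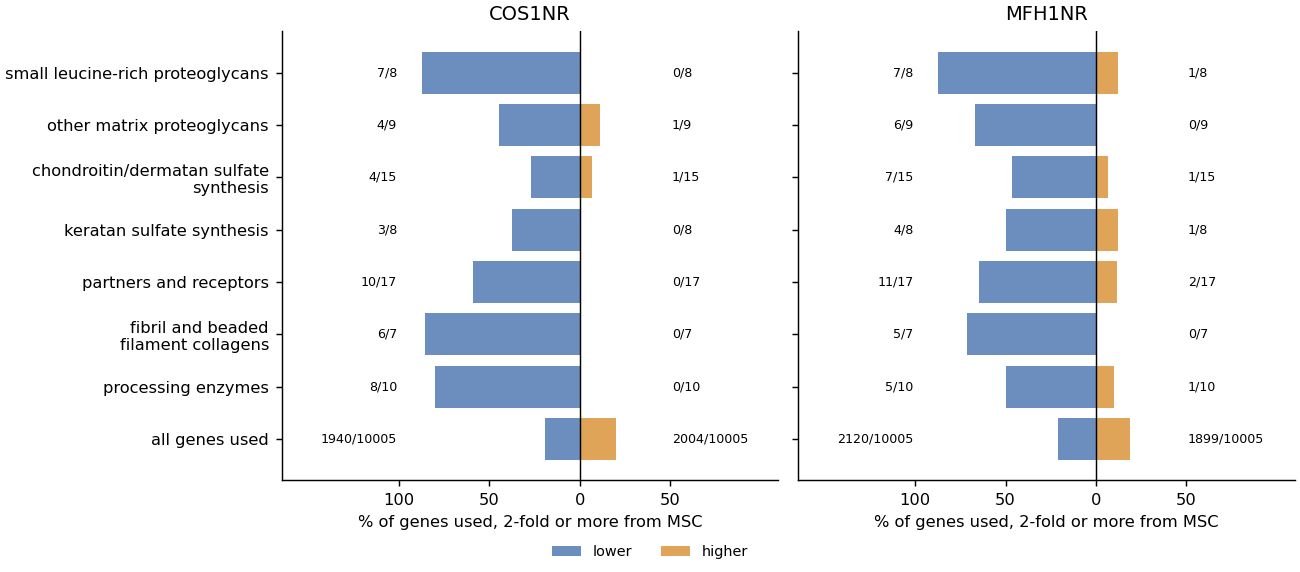
Share of genes at least 2-fold lower (left) or higher (right) than in MSCs, for COS1NR and MFH1NR, over the small leucine-rich proteoglycans, 6 lists of related genes and all genes used; numbers give the count of genes over the genes used in each list. Of the proteoglycans, 7 of 8 were lower in each line, against 1940 and 2120 of 10005 genes.

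For each member, the 3 genes with the most similar pair of ratios to MSCs were found by the distance between log2 ratios among 9447 genes with both, over 3 arrays. Oasl2, Adgrg6 and Kalrn lay nearest to Lum, at distances of 0.10 to 0.20, and Vcpip1, Gabpa and Rab27a nearest to Fmod, at 0.06 to 0.10. Among these, Oasl2, Adgrg6, Vcpip1 and Gabpa were well above background on all 3 arrays. Spata18, Adora2a and Ch25h lay nearest to Bgn, and none of them was well above background in MFH1NR. For the other members, at least 1 of the ratios compared was itself a bound, so that nearness follows the brightness in MSCs and the background limit in part. The nearest genes were Fam20c, Sat1 and Tgfbi for Dcn, Tfpi2, Ctsh and Coro1a for Ogn, and Tmem119, Slc39a8 and Ccn5 for Omd. They were Mmp23, Nsg1 and Tnn for Aspn and P2ry10b, Trim63 and Spin2a for Prelp.

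**Figure D5:**
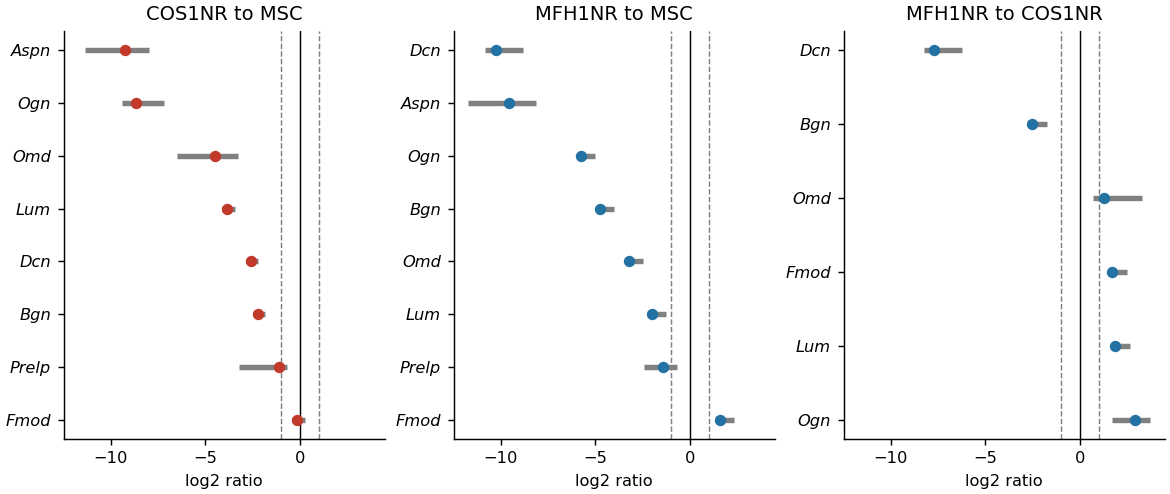
Log2 ratio of each member for 3 pairs of arrays (points) with the range over the alternative ways of processing (grey bars); dashed lines mark 2-fold. Fmod in COS1NR crosses 0, from -0.39 to 0.28, the bounds of Prelp cross the 2-fold line in both lines, and Dcn in MFH1NR lies between -10.83 and -8.83 throughout.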

How the data were processed

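RNA of MSCs, COS1NR and MFH1NR was measured on 1 Agilent 1-colour array each. The authors deposited Feature Extraction output, in which spot intensities have the background subtracted and spatial trends removed, with no scaling between arrays. The deposited series table held the same intensities. Feature Extraction is version 10.5.1.1 in the file headers and 9.1 in the submitters' processing notes, and the labels and the methods name different RNA isolation and labeling kits. The array design refers to build rn4.

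Control spots and spots called outliers were left out, which left 40816 probes. Intensities were taken as log2 relative to the 75th percentile of their array. Probes were named through their RefSeq accession with a gene table of GRCr8, which named 16736 probes, and the probe of highest mean log2 intensity stood for its gene. Ratios rest on 1 array per cell type, so the single arrays limit the precision of all comparisons. Counts at 2-fold under the scaling by the 75th percentile were set beside the shares over all genes used.

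The members and lists were chosen with earlier results of these data known. The genes named are all members, all listed other small leucine-rich repeat genes, the 2 lowest and the 2 highest of every other list by the mean of both ratios to MSCs, the 3 genes nearest to each member, and markers. Prg4, Chst5, Tlr2, Col1a2, Col14a1, Chst7, Bmp4, Tll1 and the genes whose ratios had opposite signs in the lines were named after their values were seen. Genes beside the members on the chromosomes were named by position.

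Alternatives were no, median, quantile and spike-in scaling (7 spike-in probes), normexp with an offset of 50, the mean of all probes, the second probe, the series table, a stricter and no filter on dim probes, measured values in place of bounds, and a 3-fold threshold. Normexp was run on the median spot intensity, a choice made after the data were seen. The counting step was tested on simulated data, in which the genes that were lowered mostly stayed bright enough to remain above background. Those data hardly test counts that rest on bounds, as several of the members do. R 4.3.3 with limma 3.58.1 and Python 3.11.15 with numpy 2.4.6, pandas 2.3.3 and matplotlib 3.10.9 were used.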

Additional observations from a re-analysis of the deposited data

Results flagged for a closer look

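For Fmod and 15 other genes among the lists, markers and chromosomal neighbors, the ratio to MSCs had opposite signs in the 2 sarcoma lines, on 1 array each, and the differences between the lines were not tested. The genes nearest to a member, chosen by these ratios, were left out. Fmod was at -0.12 for COS1NR and 1.59 for MFH1NR on the log2 scale, which differ by 1.71. The former turned sign without scaling (0.28), with median scaling (0.04) and with normexp (0.08). Bmp2, a bone morphogenetic protein, had -1.07 and 4.52, which differ by 5.59, and the former came within 2-fold without scaling (-0.67), with median scaling (-0.91) and with normexp (-0.72). Tlr4, a receptor of biglycan, had a bound of -0.80 and a ratio of 4.33, which differ by at least 5.13. Mmp3, stromelysin, had -0.79 and 3.96, which differ by 4.75. Spp1, or osteopontin, had -1.09 and 1.29, which differ by 2.38. Dusp9, a phosphatase gene near Bgn on chromosome X, had a bound of -1.45 and a ratio of 2.29, which differ by at least 3.74, and with normexp these became -0.91 and 1.47. Prg4, or lubricin, had 1.002 and -5.04, a difference of -6.04, and the latter ratio became -3.77 with normexp. Slc35b2 had 0.13 and -0.72, a difference of -0.85, and turned sign in COS1NR with spike-in scaling (-0.15) and in MFH1NR without scaling (0.03). Htra1 had 0.20 and -0.20, a difference of -0.40, and turned sign in MFH1NR without scaling (0.55) and with median (0.02), quantile (0.12) and spike-in scaling (0.32), and in COS1NR with spike-in scaling (-0.07). Matn1, a cartilage matrix protein, had 0.07 and -0.86, a difference of -0.93, and turned sign in COS1NR with spike-in scaling (-0.20) and normexp (-0.06). Cdh5, an endothelial cadherin, had 0.50 and a bound of -0.55, a difference bounded at -1.04, and turned sign in COS1NR with normexp (-0.03). Ippk, beside the group of chromosome 17, had -0.27 and 0.12, a difference of 0.39, and turned sign in COS1NR without scaling (0.13) and in MFH1NR with normexp (-0.32). B4galt7, which adds a galactose of the linker of the chains, had 0.11 and -1.05, a difference of -1.17, and turned sign in COS1NR with spike-in scaling (-0.16). In MFH1NR it came within 2-fold without scaling (-0.30) and with median (-0.84) and spike-in scaling (-0.53). B3galt6, the next enzyme of that linker, had -0.60 and 0.09, a difference of 0.69. Csgalnact2, which starts chondroitin chains, had -0.70 and 0.33, a difference of 1.03. It passed 2-fold in COS1NR over the mean of all probes (-1.01) and in MFH1NR without scaling (1.08). Tgfbr1, a TGF-beta receptor, had -0.44 and 0.46, a difference of 0.90, and turned sign in MFH1NR over the mean of all probes (-0.32).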

How the results depend on the processing

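Of 229 ratios of the members recomputed under up to 11 alternatives each, 221 kept their direction and their side of the 2-fold threshold, and 18 of 22 ratios did so under every alternative that gave them a value. The series table and the changes of filter on dim probes repeated the values by their construction. The second probe and the mean of all probes could change Ogn alone, and measured values could change bounds alone. The 221 include these repeats. Normexp drew the bounds of Dcn in MFH1NR to -8.83, of Ogn in COS1NR to -7.17 and of Omd in COS1NR to -3.27 and of Aspn to -7.96 and -8.13, and between the lines those of Dcn to -6.24 and of Ogn to 1.70. Without scaling, MFH1NR stood to MSCs at -4.0 for Bgn, -1.23 for Lum, 2.35 for Fmod, -5.0 for Ogn and -2.48 for Omd, and with spike-in scaling MFH1NR stood to COS1NR at -1.75 for Bgn, 2.65 for Lum, 2.50 for Fmod and 3.73 for Ogn. Fmod in COS1NR against MSCs turned from -0.12 to 0.28 without scaling, 0.04 with median scaling and 0.08 with normexp. Prelp came within 2-fold in COS1NR without scaling (-0.70) and with median scaling (-0.93), and in MFH1NR without scaling (-0.66) and with spike-in scaling (-0.90), and Omd between the lines did so with normexp (0.69). With only genes well above background on all arrays, 3 members were left. Of these, 2 were lower and 0 higher in COS1NR than in MSCs, against 15.1% and 20.7% of 7927 genes. In MFH1NR 2 were lower and 1 higher than in MSCs, against 16.2% and 18.9%. Between the lines, 1 was lower and 2 were higher in MFH1NR, against 12.1% and 9.69%. The causes were not tested, except that this filter leaves out members by its construction. Scaling moved the background, from 19.4% lower and 20.0% higher in COS1NR to 14.3% and 31.6% without scaling and 24.3% and 14.1% with spike-in scaling. In MFH1NR it moved from 21.2% and 19.0% to 12.7% and 40.6% without scaling and 14.7% and 32.9% with spike-in scaling, and between the lines from 14.2% and 11.7% to 6.69% and 32.9% with spike-in scaling. The median log2 ratio of all genes moved from 0.11 in COS1NR and 0.02 in MFH1NR to 0.52 and 0.79 without scaling, 0.28 and 0.23 with median scaling and -0.16 and 0.55 with spike-in scaling, and between the lines from -0.09 to 0.27 without scaling and 0.71 with spike-in scaling.

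Counts of the lists moved as follows. Without scaling, 3 other matrix proteoglycans and 1 partner or receptor were higher and 2 chondroitin enzymes lower in COS1NR, and in MFH1NR 1 other leucine-rich repeat gene and 2 chondroitin enzymes were lower and 1 other matrix proteoglycan, 3 chondroitin enzymes and 4 partners were higher. With median scaling, 2 other matrix proteoglycans were higher in COS1NR and 3 chondroitin enzymes were lower in MFH1NR. With spike-in scaling, 0 other matrix proteoglycans were higher and 8 chondroitin enzymes lower in COS1NR, and 1 other leucine-rich repeat gene and 3 chondroitin enzymes were lower in MFH1NR. With the filter for all arrays, 0 other leucine-rich repeat genes, 1 other matrix proteoglycan and 1 chondroitin enzyme were lower in COS1NR, and in MFH1NR 1, 3 and 4 of these lists and 2 keratan sulfate enzymes were lower, with 0 keratan sulfate enzymes and 1 partner higher. With measured values, 2 other matrix proteoglycans and 1 partner were higher in COS1NR. At 3-fold, 0 other matrix proteoglycans were higher and 2 chondroitin enzymes lower in COS1NR, and 1 other leucine-rich repeat gene and 2 chondroitin enzymes were lower in MFH1NR. Among the other genes of the lists and the neighbors, 2145 of 2305 values kept direction and side. Of their 137 ratios past 2-fold, 72 moved by over 1.5 times without scaling, 52 with normexp, 33 with measured values and 12 over the mean of all probes. No paired analysis was possible because each cell type had a single array.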

Other observations

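The marker lists of neighboring cell types differed between the cultures. Of 10 stromal markers, 7 were at least 2-fold lower than MSCs in COS1NR and 6 in MFH1NR. Of all genes used, 19.4% and 21.2% were lower, and 20.0% and 19.0% were higher. Eng and Lepr were well above background in MSCs alone and so could only be lower. Over the mean of all probes Cd44 (-1.25) and Col1a1 (-2.01) passed 2-fold in COS1NR, as did Col1a1 in MFH1NR (-1.87). Lepr passed it in COS1NR with spike-in scaling (-1.14). The count of 6 included a bound of -1.20 for Lepr, the leptin receptor, which came within 2-fold without scaling (-0.44) and with median (-0.98), quantile (-0.99) and spike-in scaling (-0.68). Thy1, a surface antigen of stromal cells, had an intensity of 2781 for MSCs, 6.29 for COS1NR, where it was not well above background, and 2633 for MFH1NR. Pdgfra, a receptor of mesenchymal cells, had 7621, 353 and 10693. Vcam1, an adhesion molecule, had the opposite order of the lines, with 36358, 1611 and 470. Between the lines, 3 of the 8 stromal markers with a ratio were higher in MFH1NR by 2-fold or more, 1 was lower and 4 were within 2-fold. Of all genes used, 11.7% were higher and 14.2% lower in MFH1NR by this rule. Of 5 chondrocyte markers used, 3 were lower in each line, among them Acan, the aggrecan core protein, at 641, 5.96 and 13.5. Acan was above background in MSCs alone and so could only be lower. Tnmd, the tendon membrane protein tenomodulin and the single tenocyte marker with a named probe, had 325, 6.07 and 20.1, above background in MSCs alone. Of 2 endothelial markers used, Kdr was lower in each line and Cdh5 was near background throughout. Of the osteoblast markers with a ratio, 4 of 5 were lower in COS1NR, and 3 of 6 were lower and 2 higher in MFH1NR, where Spp1, or osteopontin, had 149222 against 36180 for MSCs and 22285 for COS1NR. Of these calls, that of Spp1 in COS1NR came within 2-fold without scaling (-0.70) and with median scaling (-0.93). In MFH1NR that of Dmp1, a phosphoprotein of bone matrix, did so without scaling (-0.54) and with spike-in scaling (-0.78), and that of Sp7 with normexp (0.69). Dmp1 was above background in MSCs alone and so could only be lower, and Sp7 in MFH1NR alone and so could only be higher.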
